A study of Apis mellifera with 36 samples.

Results

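Guards and nurses of a single honey bee colony, colony 6, were compared for gene expression in the brain. The comparison takes 12 of the 36 libraries in the series: 6 guards and 6 nurses, chosen by the behavioural type and the colony in the labels. Each library is 1 worker bee of Apis mellifera aged 7 days, reared in a laboratory dish with its nestmates from emergence. Guards had bitten or stung an unrelated intruder in each of the repeated intruder assays, and nurses had tended a queen larva at length in each of the nursing assays. All bees had one mother, a queen inseminated with the semen of one drone, so that guards and nurses were full sisters. The other libraries served only as context: 6 unresponsive bees of colony 6, which had shown no overt response, and 18 bees of colony 5, with 6 of each type. The numbers 205, 210, 213, 222, 230 and 237 occur in the titles of colony 6, each on 1 guard, 1 nurse and 1 unresponsive bee. The labels say that 6 dish groups per colony were used, but do not say that the number in a title marks the dish. Bees are named below by type and number.

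Worker honey bees divide labour. Nurses feed larvae with glandular secretions, usually early in adult life, and guards inspect and attack intruders at the entrance, usually later. Here both types had the same age, so that the comparison asks which genes differ in the brain between sisters that specialised in defence or in brood care. The tissue was the upper midbrain, which holds mostly the mushroom bodies, the paired centres of insect learning and memory, and the central brain. The optic lobes, the antennal lobes, the subesophageal ganglion and the hypopharyngeal glands had been cut away, per the labels. Genes carry IDs of the bee annotation that the files do not pair with names, and 0 of 15314 IDs matched the gene table used here. Genes are therefore given by ID with no function, and tissue markers could not be checked. In tissue of mixed cells, fewer cells of a type and less RNA per cell cannot be told apart.

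The 12 libraries held 17.4 to 27.55 M (mega) reads counted in genes, with a median of 18.82 M in guards and 19.19 M in nurses. Both libraries numbered 213 were the deepest of their type. The share of total reads mapped to the bee genome was 81.5% in Guard 210, 82.8% in Guard 213, 81.7% in Guard 230 and 82.2% in Guard 237. It was 83.9% in Guard 205, 86.0% in Guard 222 and 84.8% to 86.0% in nurses. Reads of a bee virus, the deformed wing virus (DWV), which the labels list for each library, differed among guards. Guards 213, 230 and 237 had 8526, 8608 and 6673 DWV reads per 1000000 total reads, whereas guards 205, 210 and 222 had 63.2, 32.0 and 3.91. The nurses ranged from 2.60 to 41.6, with a median of 4.86. The mean log10 load was 2.60 ± 1.48 (SD, n = 6) in guards and 0.797 ± 0.429 (SD, n = 6) in nurses, a difference of 1.80 (exact permutation test, two-sided, p = 0.0238). Taken in pairs by number, the guard had the higher load in 5 of 6 pairs (exact sign-flip test, p = 0.0938, where 0.0312 is the smallest possible). The high range was thus held by 3 of the 6 guards, all far above every nurse.

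No gene passed the threshold when the 6 guards were compared with the 6 nurses alone. With edgeR's quasi-likelihood test, 0 of 10787 genes (0%) had an adjusted p under 0.05, and the lowest adjusted p was 0.133. An unadjusted p under 0.05 was reached by 1210 genes (11.2%), of which 542 were higher and 668 lower in guards. The median size of the log2 difference over all genes was 0.0856, close to the median standard error of 0.0895. The number of calls differed between tests and between the sets of libraries fitted. DESeq2 on the same 12 libraries called 101 genes (0.936%), 60 higher and 41 lower in guards. The quasi-likelihood test called 30 of 10954 genes (0.274%) when the 6 unresponsive bees were added to the fit, 23 higher and 7 lower in guards, and all 30 were among the 101. With all 36 libraries it called 64 of 11234 genes (0.57%), 52 higher and 12 lower, and 28 of the 30 were among these. Guards 222 and 205 each decided whether any gene was called: without Guard 222 there were 38 calls (0.351%), 27 higher and 11 lower, and without Guard 205 there were 13 (0.12%), 10 higher and 3 lower. Leaving out any other single bee gave 0 calls. Without both bees numbered 213, 0 of 10797 genes passed and 678 (6.28%) had an unadjusted p under 0.05.

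**Figure D1:**
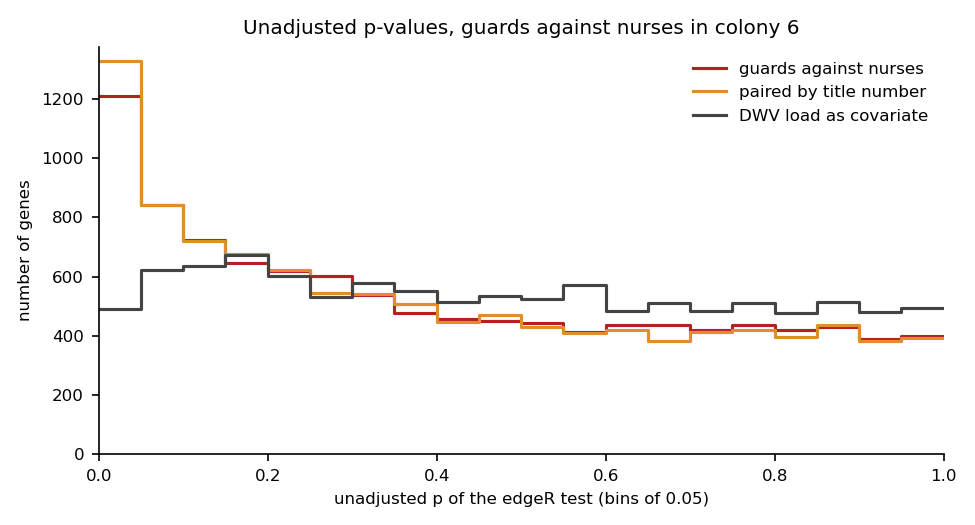
Number of genes (y axis) in each bin of unadjusted p (x axis, bins of 0.05) for guards against nurses of colony 6, tested without pairing, paired by title number, and with DWV load as a covariate. The lowest bin holds 1210 genes without pairing, 1329 with pairing and 489 with DWV load in the model.

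GB53925 was the most clearly higher of the genes that fell short of the threshold. Its level was 19.8 counts per 1000000 gene counts (CPM) in Guard 205, 29.0 in Guard 210, 21.4 in Guard 213, 6.99 in Guard 222, 19.7 in Guard 230 and 9.67 in Guard 237. The nurses had 2.98 to 5.86 CPM with a median of 4.78, and the unresponsive bees of colony 6 had 3.15 to 4.33 CPM. Every guard lay above every nurse and every unresponsive bee, with guards 222 and 237 closest to them. The difference was 1.94 ± 0.307 on the log2 scale (SE, n = 6 and 6), a ratio of 3.82 with a 95% interval of 2.42 to 6.05 (adjusted p = 0.133).

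GB48905 was much more abundant than that gene and differed less between the types. The guards had 419.7 CPM in Guard 205, 679 in Guard 210, 696 in Guard 213, 528 in Guard 222, 631 in Guard 230 and 614 in Guard 237. The nurses had 351 to 417 CPM with a median of 401. Guard 205 stood only just above the highest nurse, while the other guards were clear of the nurses. The log2 difference was 0.59 ± 0.103 (SE), a ratio of 1.51 with a 95% interval of 1.29 to 1.75 (adjusted p = 0.138). Unresponsive 213 and 222, with 451 and 486.5 CPM, also exceeded the highest nurse.

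GB43727 and GB40980 were the lower genes of smallest p, and for both every guard lay below every nurse. GB43727 had 385 to 490.25 CPM in guards, with a median of 467, and 548 to 667 CPM in nurses, with a median of 599. Guards 210 and 230, at 394 and 385 CPM, were the lowest, and Guard 237 was the nearest to the nurses. The log2 difference was -0.44 ± 0.0726 (SE), a ratio of 0.736 with a 95% interval of 0.661 to 0.82 (adjusted p = 0.133). GB40980 had 158 to 202 CPM in guards, with a median of 176, against 213 to 312 CPM in nurses, with a median of 255. Guard 205 was highest and Guard 222 lowest, so that Guard 222, the guard most often within the nurse range for the higher genes described below, had the strongest difference here. The log2 difference was -0.54 ± 0.0949 (SE, adjusted p = 0.138).

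The unresponsive bees had nurse-like values for both lower genes, 535 to 645 CPM for GB43727 and 219.8 to 291 CPM for GB40980, with no bee in the range of the guards. All 4 genes just described were among the 30 called with the unresponsive bees in the fit.

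**Figure D2:**
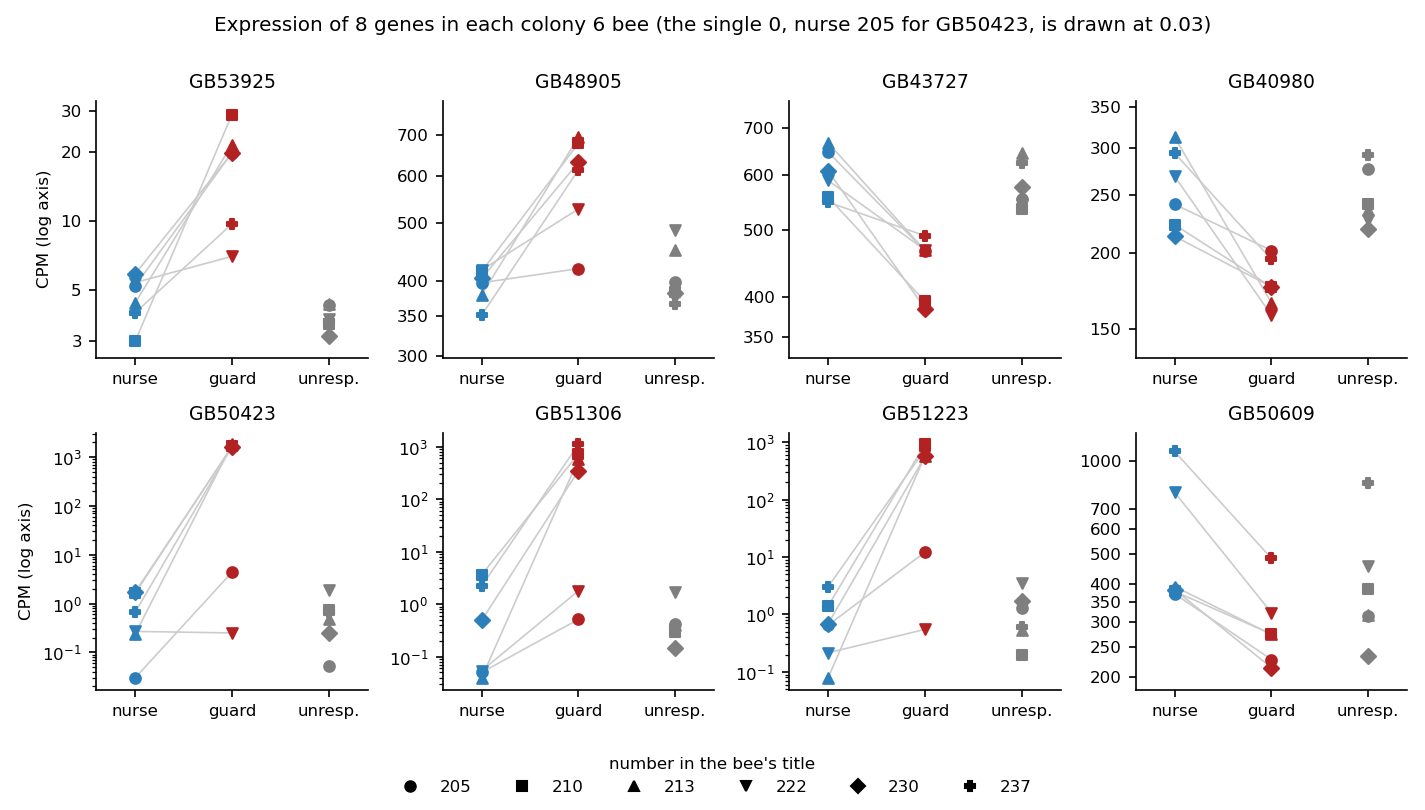
Expression in CPM (log axis) of 8 genes in each colony 6 bee, with nurses in blue, guards in red and unresponsive bees in grey. Marker shapes give the number in the title and grey lines join a guard with the nurse of its number. In GB50423, GB51306 and GB51223 guards 210, 213, 230 and 237 stand at 351 CPM or more, far above guards 205 and 222 and all nurses.

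The biggest differences belonged to genes that were nearly silent in nurses and abundant in only some guards. GB50423 had 1668 CPM in Guard 210, 1829.5 in Guard 213, 1623 in Guard 230 and 1649 in Guard 237, but 4.38 in Guard 205 and 0.25 in Guard 222. The nurses had 0 to 1.72 CPM with a median of 0.465, which is 0 to 35 reads, and the unresponsive bees had 0.0516 to 1.88 CPM. In the guards with high levels the gene took 28699 to 50354 reads. The guards thus fell into separate levels, and Guard 222 lay inside the nurse range. The log2 difference was 10.56 ± 2.04 (SE, adjusted p = 0.175) over 12 libraries and 10.57 ± 1.69 (adjusted p = 0.021) with the unresponsive bees in the fit.

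GB51223 had the same bees at the top. It had 912 CPM in Guard 210, 575 in Guard 213, 561 in Guard 230 and 743 in Guard 237, against 12.2 in Guard 205 and 0.549 in Guard 222. Nurses had 0.0788 to 3.03 CPM and unresponsive bees 0.194 to 3.55 CPM. Guard 205 lay above every nurse at a level well below that of the other guards, and Guard 222 lay within the nurse range. The log2 difference was 8.90 ± 1.67 (SE, adjusted p = 0.175; adjusted p = 0.021 with the unresponsive bees). A fold over guards as a group describes none of these bees, because the group mean falls between their levels.

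Among the lower genes called with the unresponsive bees in the fit that had a mean of at least 4 CPM, GB52542 and GB51380 had the greatest size. GB52542 had 13.7 CPM in Guard 205, 10.4 in Guard 210, 15.7 in Guard 213, 23.8 in Guard 222, 14.4 in Guard 230 and 17.6 in Guard 237. The nurses had 22.0 to 37.1 CPM, so that Guard 222 alone overlapped with them. The log2 difference was -0.84 ± 0.181 (SE, adjusted p = 0.175; adjusted p = 0.0375 with the unresponsive bees). GB51380 had 24.9 to 41.0 CPM in guards and 41.6 to 63.8 CPM in nurses, with every guard below every nurse, though Guard 205 by a narrow margin. Its log2 difference was -0.58 ± 0.13 (SE, adjusted p = 0.186; adjusted p = 0.0444 with the unresponsive bees).

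Over the 30 genes, guards 210, 213, 230 and 237 lay outside the nurse range in every case. Guard 205 lay above the highest nurse for 17 of the 23 higher genes, and Guard 222 for 8 of the 23. Both lay below the lowest nurse for 6 of the 7 lower genes. The median log2 difference of the 23 higher genes from the nurses was 1.86 in Guard 210, 1.62 in Guard 213, 2.02 in Guard 230 and 1.27 in Guard 237, but 0.323 in Guard 205 and 0.22 in Guard 222. The median of the 7 lower genes ranged from -0.756 in Guard 213 to -0.342 in Guard 205. All 6 guards were outside the nurse range for 6 of the higher and 5 of the lower genes. These genes were called with the same bees, so the counts describe how the calls are made up and are not a test.

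**Figure D3:**
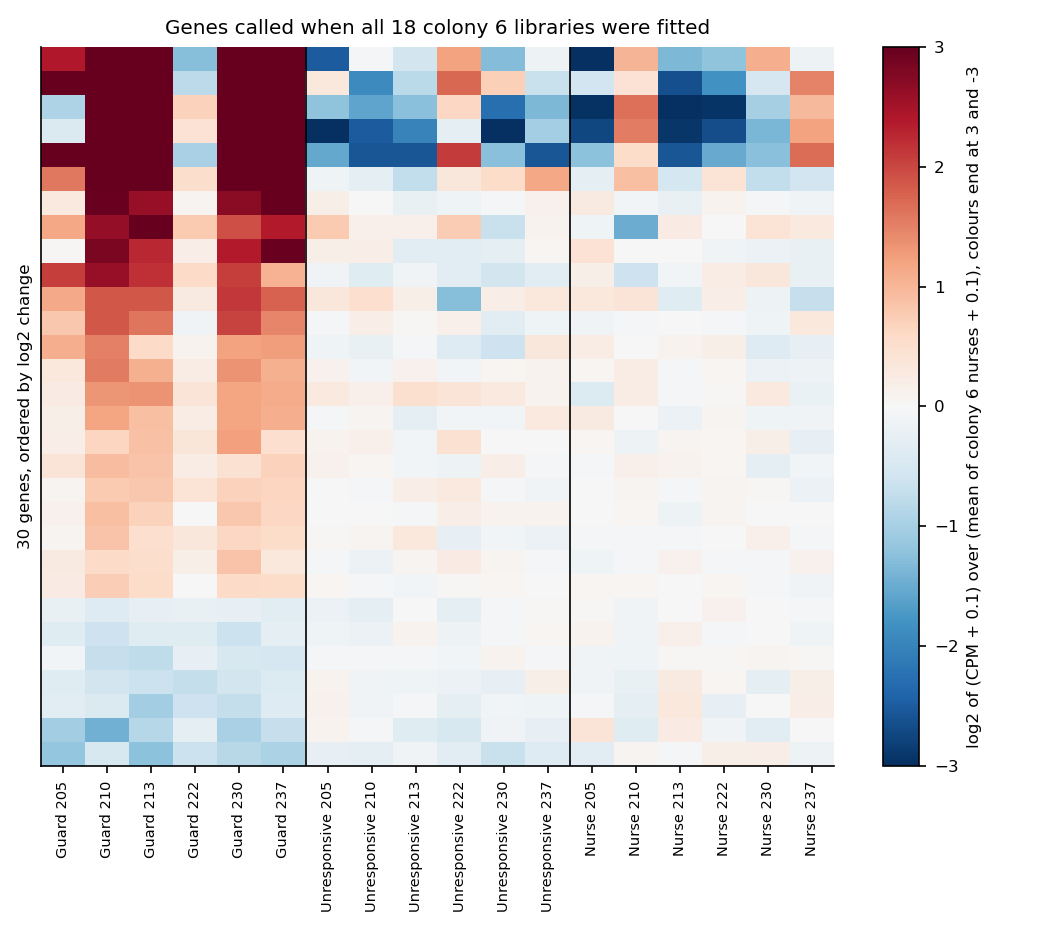
Level of the 30 genes called in the fit of all 18 colony 6 libraries (rows, ordered by log2 change) in each bee (columns), as log2 of CPM over the mean of colony 6 nurses, with 0.1 CPM added to both. Guards 210, 213, 230 and 237 are high throughout the 23 upper rows, guards 205 and 222 are closer to the nurses, and in the 7 lower rows all guards tend to be low.

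DWV load moved with part of this pattern. Of the guards that carried the higher genes, 213, 230 and 237 had a high load and Guard 210 did not, with 32.0 reads per 1000000. Guards 210, 213, 230 and 237 also had the lowest shares of reads mapped to the bee genome among the guards and nurses, 81.5% to 82.8%. Any link of that share with the higher genes was not tested. With log10 DWV load as a covariate, 0 genes passed the edgeR test, 489 genes (4.53%) had an unadjusted p under 0.05, and the lowest adjusted p was 0.885. The median log2 difference of the 23 higher genes went from 1.43 to 0.862 with the covariate, and that of the 7 lower genes from -0.537 to -0.449. Without guards 213, 230 and 237 the medians were 1.07 and -0.457. In that fit 0 of 10989 genes passed, with 951 (8.65%) at an unadjusted p under 0.05 and a lowest adjusted p of 0.441. With the covariate, 22 of the 23 higher and all 7 lower genes had an unadjusted edgeR p under 0.05. Without the guards of high load all 23 and all 7 did. That fit kept guards 205, 210 and 222, whose median log2 differences for the 23 higher genes were 0.323, 1.86 and 0.22. For the higher genes it thus rested largely on Guard 210. The 23 and the 7 genes had been called with the same bees, so the counts are not a test. Load and type cannot be told apart for those bees, since no nurse of colony 6 had a high load. Nor can load be told apart from the numbers 213, 230 and 237 among the guards. The nurses of these numbers, at low load, lay apart from the other nurses on the first principal component described below. The fit without these guards kept those nurses. GB53925 had a log2 difference of 1.81 ± 0.408 with the covariate and of 2.00 ± 0.356 without those guards. GB50423 had 8.98 ± 2.15 and 9.55 ± 2.31, and of the guards kept in the latter fit only Guard 210 had a high level of it.

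Another way to see which bees differ is to count, bee by bee, the genes that left the nurse range by a wide margin. A gene was counted as high where a bee had at least 2 times the level of the highest nurse and at least 4 CPM, and as low where it had at most 1/2 the level of the lowest nurse and that nurse had at least 4 CPM. Guard 210 had 38 high genes, Guard 230 had 35, Guard 213 had 33, Guard 237 had 26, Guard 205 had 25 and Guard 222 had 3. Low genes numbered 26 in Guard 230, 15 in Guard 210, 13 in Guard 213, 3 in Guard 237, and 1 each in guards 205 and 222. The unresponsive bees of colony 6 had 0 to 6 high and 0 to 7 low genes by the same measure. The nurses, each set against the other 5, had 0 to 40 high and 0 to 4 low genes, and Nurse 210 held the 40. A wide excess in 1 bee was therefore not limited to guards.

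**Figure D4:**
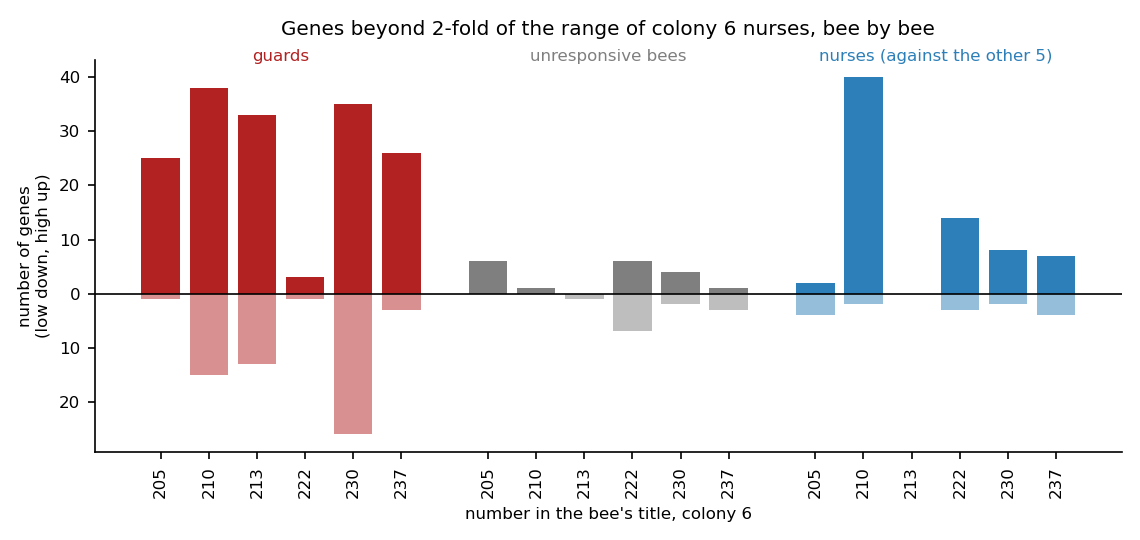
Number of genes (y axis) at 2 times the highest colony 6 nurse or more (dark, upward) and at 1/2 the lowest nurse or less (pale, downward) in each colony 6 bee (x axis, number in the title), with each nurse set against the other 5. Guards 205, 210, 213, 230 and 237 have 25 to 38 high genes and Guard 222 has 3, while Nurse 210 has 40.

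Some of these genes were shared by several guards. At least 1 guard was high for 85 genes (0.788%) and at least 1 was low for 41 (0.38%). Of the 85, 54 were high in a single guard, 31 in at least 2 guards, 20 in at least 4, and none in all 6. Guard 205 held 20 of the 54 alone, Guard 230 held 11, and guards 210 and 213 held 9 each. The unresponsive bees of colony 6 had 15 genes high in at least 1 bee (0.139%), 3 in at least 2 and 0 in at least 4. In colony 5, against the nurses of that colony, the guards had 25 (0.232%), 3 and 1, and the unresponsive bees had 65 (0.603%), 19 and 0. Of the 41 low genes, 30 were low in a single guard, 18 of them in Guard 230, and 1 was low in at least 4. No test was made of these counts.

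The most frequent shared pattern was a group of 16 genes high in guards 210, 213, 230 and 237 and in neither of the others. The lowest of these guards exceeded the highest nurse by 2.25 to 96.8 times, with a median of 2.96, and by at least 10 times in 2 of the 16 genes. Their median log2 difference from the nurse median was 2.43 in Guard 210, 2.22 in Guard 213, 2.46 in Guard 230 and 2.31 in Guard 237, values fixed in part by how the genes were chosen. In bees that played no part in the choice, it was -0.03 to 0.07 in the 6 unresponsive bees of colony 6. In colony 5 it was 1.17 in Guard 5, where 5 of the 16 genes reached 2 times the highest nurse. In the other colony 5 bees it was -0.336 to 0.415. Guard 5 had 10944 DWV reads per 1000000. The other colony 5 bees of high load, at 10411.9 or more, had medians from -0.279 in Guard 40 to 0.415 in Unresponsive 19. Colony 5 bees of low load, at 63.9 or less, had medians from -0.336 in Guard 35 to 0.237 in Nurse 32. The relation of these medians to load was not tested.

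Genes in which guards and nurses did not overlap at all mostly differed by less than 1.5-fold. Every guard was above every nurse in 42 genes (0.389%) and below every nurse in 19 (0.176%). The median log2 difference was 0.205 for the 42 and -0.412 for the 19. Of the 42, 31 differed by less than 1.5-fold, as did 16 of the 19. So did 10450 of all 10787 genes tested, whose median size of the log2 difference was 0.0856. Differences were thus larger among the separated genes than over all genes, which their choice favours. Guard by guard, the median of the 42 ran from 0.181 in Guard 237 to 0.277 in Guard 213, and Guard 222 had 0.215. The median of the 19 ran from -0.275 in Guard 205 to -0.542 in Guard 230. That every guard takes part in these genes follows from how they were chosen. The median SD of log2 CPM was 0.165 in guards, 0.138 in nurses and 0.135 in unresponsive bees, and the guards had a larger SD than the nurses in 6919 genes (64.1%). In colony 5 the median SD was 0.144 in guards, 0.115 in nurses and 0.154 in unresponsive bees. The difference in spread was not tested.

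Pairing each guard with the nurse of its number did not bring any gene past the threshold. The paired edgeR test called 0 of 10787 genes (0%), with a lowest adjusted p of 0.0881 and 1329 genes (12.3%) at an unadjusted p under 0.05, 523 higher and 806 lower. The guard was higher in 6 of 6 pairs for 343 genes (3.18%) and lower in 6 of 6 for 299 (2.77%). The median standard error was 0.0821 with pairing and 0.0895 without.

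GB51306 and GB50423 were the higher genes of smallest p with pairing. GB51306 had 734 CPM in Guard 210, 574 in Guard 213, 351 in Guard 230 and 1114.5 in Guard 237, but 0.515 in Guard 205 and 1.80 in Guard 222. The nurses had 0.0394 to 3.62 CPM. Guards 205 and 222 lay inside the nurse range, but each exceeded its own pair mate, which had 0.0499 and 0.0537 CPM, or 1 read. The guard was therefore higher in 6 of 6 pairs, and the paired log2 difference was 8.91 ± 0.606 (SE, adjusted p = 0.0881), against 8.80 ± 1.91 (adjusted p = 0.221) without pairing. For GB50423 the guard was higher in 5 of 6 pairs, and the paired difference was 10.57 ± 0.756 (SE, adjusted p = 0.0881). These standard errors come from the F statistic of the paired fit and do not show the spread between pairs. Pair by pair, the log2 difference of GB51306 ran from 2.05 for 205 to 12 for 213. That of GB50423 ran from -0.079 for 222 to 12.4 for 213.

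GB50609 had the smallest paired p among lower genes not already named, and its level followed the title number. Its level was 227 and 371 CPM in Guard 205 and Nurse 205, 275 and 378 in the pair 210, 274 and 392 in the pair 213, 322 and 789 in the pair 222, 214 and 383 in the pair 230, and 483 and 1071 in the pair 237. The nurses of pairs 222 and 237 stood far above the other nurses, and Guard 237 stood above 4 nurses while staying below its own. The unresponsive bees had their highest levels, 848 and 457 CPM, at the same numbers, 237 and 222. The paired log2 difference was -0.83 ± 0.111 (SE, adjusted p = 0.0928), against -0.92 ± 0.33 (adjusted p = 0.379) without pairing.

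GB45459 had 256 to 287 CPM in guards and 307 to 366 CPM in nurses, with every guard below every nurse. The pairs differed by -0.238 to -0.355 on the log2 scale, the narrowest span among the genes named here. The paired difference was -0.27 ± 0.0438 (SE, adjusted p = 0.114).

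The first principal component of the 12 libraries, 28.4% of the variance, did not separate guards from nurses. It placed nurses 205, 210 and 222 at -16.9, -29.6 and -20.0 and nurses 213, 230 and 237 at 10.9, 10.3 and 11.0. Guards 205 and 222 lay at -19.9 and -30.7, guards 213, 230 and 237 at 24.0, 23.8 and 26.5, and Guard 210, unlike its nurse, at 10.7. In 5 of 6 pairs the guard and the nurse thus fell on the same side of 0. The second component, 17.7% of the variance, ran from -0.777 to 23.6 in guards and from -28.5 to 8.13 in nurses. The types overlapped on it, but the guard lay above the nurse of its number in 6 of 6 pairs.

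In colony 5 the same comparison of 6 guards with 6 nurses called 0 of 10782 genes (0%) in edgeR. The lowest adjusted p was 0.532, and 649 genes (6.02%) had an unadjusted p under 0.05. The difference between the colonies was tested directly, as the guard to nurse log2 difference in colony 6 minus that in colony 5. For this, 0 of 11100 genes (0%) passed in edgeR, with 455 (4.1%) at an unadjusted p under 0.05 and a lowest adjusted p of 0.714, while DESeq2 called 6 (0.0541%), 5 higher and 1 lower. The guard to nurse differences were thus not shown to differ between colonies by the edgeR test.

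GB42889 and GB47805 had the smallest p among genes with a more positive difference in colony 6, and both belong to the 16 genes described above. GB42889 had 2.45 to 13.5 CPM in colony 6 guards and 0.433 to 1.87 CPM in nurses, against 3.53 to 9.68 CPM and 3.10 to 6.40 CPM in colony 5. All bees of colony 5 thus lay above the nurses of colony 6, whether guards or nurses. The difference between colonies was 2.14 ± 0.50 on the log2 scale (SE, adjusted p = 0.714). GB47805 had 375 CPM in Guard 210, 180 in Guard 213, 216 in Guard 230 and 161 in Guard 237, but 46.8 and 57.1 in guards 205 and 222, beside 41.7 to 55.2 in nurses. In colony 5 it had 113 to 137 CPM in guards and 123 to 168 CPM in nurses, and the difference between colonies was 1.96 ± 0.458 (adjusted p = 0.714).

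GB40980 and GB44885 had the smallest p in the other direction. GB40980, described above as lower in colony 6 guards, had 163 to 256 CPM in colony 5 guards and 175 to 233 CPM in colony 5 nurses, which overlap. The difference between colonies was -0.65 ± 0.139 (SE, adjusted p = 0.714). GB44885 had 51.8 to 69.1 CPM in colony 6 guards and 67.6 to 84.3 CPM in nurses, against 59.3 to 78.6 CPM and 57.6 to 70.5 CPM in colony 5. The difference between colonies was -0.37 ± 0.0996 (adjusted p = 0.714).

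The genes named for colony 6 had varied values in colony 5. GB53925 had a log2 difference of 0.03 ± 0.311 (SE) there, GB43727 of -0.00 ± 0.107 and GB48905 of 0.30 ± 0.158. GB50609 was at a like value in both colonies, with -0.92 ± 0.297 (adjusted p = 0.748). GB50423 stood at 442 CPM in Guard 5, at 164 in Unresponsive 19 and at 76.1 in Nurse 5, and was at 5.44 CPM or less in the other colony 5 bees.

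Of the 42 genes wholly higher in colony 6 guards, 36 (85.7%) had a positive log2 difference in colony 5, where 64% of all genes higher in colony 6 did. Their median difference there was 0.0656. Of the 19 wholly lower genes, 12 (63.2%) had a negative difference, against 64.7% of all genes lower in colony 6, with a median of -0.0784. None of the 42 and none of the 19 was wholly separated in colony 5, where 17 genes (0.16%) were wholly higher and 19 (0.179%) wholly lower in guards among the 10632 genes tested in both colonies. The colonies share no bees, and the genes were chosen on colony 6 alone. DWV load was, however, uneven between the types in colony 5 too. Guards 19, 32, 36, 40 and 5 had loads of 17990, 11588, 10412, 10592 and 10944, in the unit used above. Guard 35 had 20.1. Nurses 36 and 5 had 15626 and 27324, and nurses 19, 32, 35 and 40 had 9.99 to 63.9. High loads were thus more frequent in guards than in nurses in both colonies. Whether load contributes to the shared direction was not tested.

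**Figure D5:**
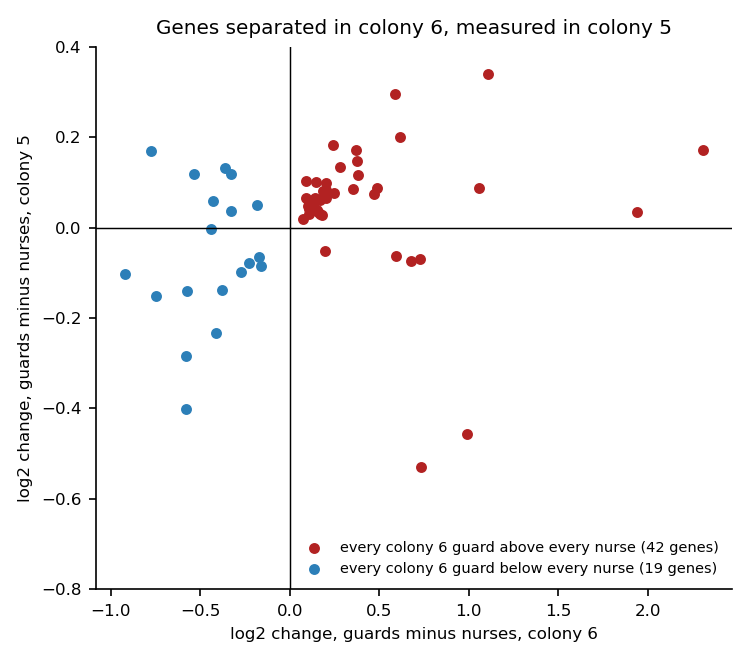
Log2 difference of guards minus nurses in colony 6 (x axis) and in colony 5 (y axis) for the genes in which every colony 6 guard lies above (red, 42 genes) or below (blue, 19 genes) every colony 6 nurse. Most red points lie above 0 on the y axis, 36 of 42, but at smaller size, and 12 of the 19 blue points lie below 0.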

How the data were processed

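RNA was sequenced from the upper midbrain of 36 single bees, and the 12 guards and nurses of colony 6 are the subject here. Per the labels' protocols, libraries were made from 550 ng of RNA with a stranded mRNA kit and read for 101 cycles. Per the submitters' processing notes, the authors used HTSeq, SAMtools (0.1.19), Bowtie2 (2.1.0), TopHat2 (2.0.10) and CASAVA (1.8.2). How these were ordered and set, and whether counting used strand, is not given in the sources used here, so overlapping or antisense genes and genes with a near-identical copy are uncertain.

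The deposited files hold raw read counts per gene, 1 file per bee, which the authors did not normalize. The 5 summary rows that name no gene were dropped. Reads in no annotated gene made up 28.1% to 29.5% of the counted reads in these 12 libraries, and reads that mapped to more than 1 place 2.70% to 3.78%. DWV reads per 1000000 were computed from the read totals in the labels.

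Counts were tested in R 4.3.3 with edgeR 4.0.16 (filterByExpr by type, TMM, robust quasi-likelihood fit, Benjamini-Hochberg adjustment over all genes tested, threshold 0.05), and with DESeq2 1.42.0 as an alternative. The standard error is the size of the log2 change over the square root of the F statistic, and 90% of genes had one below 0.279. CPM used TMM-scaled library sizes over all 36 libraries. Intervals cover counting error and the spread between bees together. In the fits of colony 6 alone, p-values set the difference between types against the spread between sisters. Without pairing, that spread includes any difference between title numbers. The test was also run on simulated counts in which all guards shared the same fold for a gene. That run does not cover genes high in only some guards. Figures used matplotlib 3.10.9 in Python 3.11.15.

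By rule, the genes named are the 2 per direction of smallest p, since none passed, at a mean of at least 4 CPM for the unpaired and paired comparisons, and for the paired one leaving out genes already named. The pair per direction of greatest size called with the unresponsive bees in the fit, at the same minimum, was added after seeing the data. Gene lists and cell type markers could not be matched to the IDs and were not tested. The comparison, the lists and the rule were chosen with earlier results of these data known. Alternatives covered the test, size factors, low-count filters, the libraries in the fit, the title number as a block, DWV load, and each bee left out in turn.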

Additional observations from a re-analysis of the deposited data

Results flagged for a closer look

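Nurse 205 had a log10 DWV load of 1.6193 reads per 1000000, while the other nurses of colony 6 had 0.415 to 0.847. Its gap to the nearest nurse was 0.642 of the whole range of the group, above Dixon's 95% critical value for 6 samples. Of 30 groups of values examined this was the only one to stand out in this way, where chance picks about 1 in 20. Guard 205, which shares its number, had 63.2 reads per 1000000, the highest among the guards outside the high range. Leaving Nurse 205 out changed no count of called genes.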

How the results depend on the processing

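The count of 0 called genes between guards and nurses held under DESeq2 size factors, under both other low-count filters, with the title number as replicate block (0 calls), with DWV load as a covariate, without both bees numbered 213, and without the guards of high DWV load. It became 101 under the DESeq2 test, 30 with 18 libraries and 64 with 36, and ran from 0 to 38 over fits that left out 1 bee. For the difference between colonies, DESeq2 called 6 genes, the fit with a replicate block called 0, and leaving out 1 bee gave 0 to 1. The rule set for pairing asked that the deviations of each same-numbered guard and nurse correlate above 0.1. It failed through number 210 alone, at 0.0431, while the others correlated at 0.167 to 0.345. The guard correlated best with the nurse of its own number for 3 of 6. Whether the number pairs the bees was thus not settled. The DWV difference of 1.80 kept its size with the replicate block but missed the threshold (exact sign-flip p = 0.0938), and ran from 1.53 to 2.20 with 1 bee left out. It missed the threshold without Nurse 210 (1.75, exact permutation p = 0.0563) and without Nurse 213 (1.72, exact permutation p = 0.0606). No named gene changed direction under any alternative run. The counts of wholly separated genes ran from 38 to 43 and from 19 to 24. Where calls changed, the cause was not tested. With 6 bees a group, the median gene had a standard error of 0.0895.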
